A study of Mus musculus with 7 samples.

Results

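Lipid uptake and lipid droplet genes were examined in the liver of *Rbpj*-deficient mice. The set holds 10 genes chosen by name, *Cd36*, *Lpl*, *Vldlr*, *Fabp1*, *Fabp4*, *Mogat1*, *Plin2*, *Cidea*, *Cidec* and *G0s2*, which are read by 13 of the 55681 probes on a mouse whole-genome oligonucleotide array. RNA was taken from the whole liver of 7 untreated C57BL/6J mice, all aged 4 weeks, and each animal was measured unpooled on an array of its own with 1 dye. All 7 carried *Rbpj* flox/flox. The 4 *Rbpj*+/+ animals, named +/+_1155, +/+_1156, +/+_1024 and +/+_991 here, lacked the transgene (*AlfpCre*-). The 3 *Rbpj*-/- animals, named -/-_N3, -/-_N5 and -/-_2866, carried it (*AlfpCre*+). The paper reports cholestasis, liver necrosis and lower body weight in *Rbpj*-/- mice of this age, and no cholestasis in *Rbpj*+/+ mice. *AlfpCre* becomes active in the fetal liver before bile ducts form, so that hepatocytes and bile duct cells both descend from cells with the deletion, while macrophages and endothelial cells stem from other lineages. Deletion, cholestasis, necrosis and lower body weight all go with the genotype in this design and cannot be told apart.

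A hepatocyte takes up fatty acids from the blood, partly after lipoprotein lipase has released them from circulating triglyceride, and carries them in the cytosol on fatty acid binding proteins. Acyl chains that are not oxidised or exported are esterified to triglyceride and stored in lipid droplets, whose surface proteins set how large the droplets grow and how fast lipases reach the lipid. The healthy liver makes much *Fabp1* and *Plin2* and little *Lpl*, *Fabp4*, *Cidea* and *Cidec*, which are abundant in adipose tissue. Several of these genes are known targets of the PPAR nuclear receptors, PPARα being the main form in hepatocytes and PPARγ the main form in adipocytes.

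Levels are given as normalized log2 intensity, in which 0 is the 75th percentile of the array and 1 unit is a doubling. Levels of different probes cannot be read as relative amounts of their transcripts, and the sums over marker lists below only follow the same probes from array to array. On mm9, the build of the array, the probe read for *Cd36* lies at chr5:17288600-17288659 and that for *Lpl* at chr8:71430267-71430326, while the other members are on chromosomes 19 (*Vldlr*), 6 (*Fabp1* and *Cidec*), 3 (*Fabp4*), 4 (*Plin2*), 18 (*Cidea*) and 1 (*Mogat1* and *G0s2*). The difference between the genotypes was tested with limma over 24550 probes that were detected in at least 1 genotype, with Benjamini-Hochberg adjustment and a threshold of 0.1. Of the 10 genes, 9 were tested and *Mogat1* was too dim. In *Rbpj*-/- liver *Cd36*, *Lpl*, *Vldlr*, *Fabp4*, *Cidea* and *Cidec* rose, *Fabp1* and *G0s2* fell, and *Plin2* did not pass. Thus 6 of 9 were higher, where 14.6% of all 18756 genes tested were, and 2 of 9 were lower, where 19.5% were. *Cidea* is among the 6, although it entered the test only through its detection in *Rbpj*-/- liver. In either direction 34.2% of all genes passed. The balance over all genes depended on the scaling, since 42.8% of the genes that passed were higher as reported, 52.3% with quantile normalization, 51.2% with the percentile taken over detected probes and 52.5% in the authors' matrix. The genotypes did not overlap for 7 of the 9 genes, against 36.6% of all genes tested. Over the 9 genes the log2 fold change had a median of 1.28, against -0.13 over all genes tested. The members, like the lists below, were chosen with earlier results of these data known. Their shares beside those of all genes are therefore a description only.

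**Figure D1:**
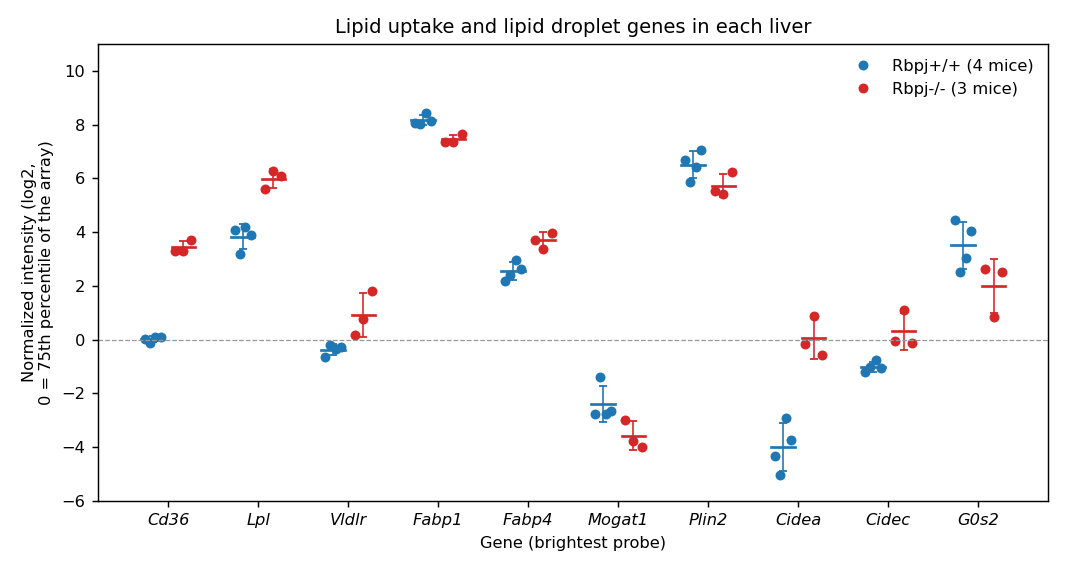
Normalized log2 intensity (vertical axis, 0 is the 75th percentile of the array) of the 10 genes in the 4 *Rbpj*+/+ and the 3 *Rbpj*-/- livers, with 1 point per animal, the mean as a line and the SD as a bar. *Cd36*, *Lpl*, *Vldlr*, *Fabp4*, *Cidea* and *Cidec* lie higher in all 3 *Rbpj*-/- livers, *Fabp1* and *Mogat1* lie lower in all 3, and *Plin2* and *G0s2* overlap.

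The bases before the transcription start are shown for *Cd36*, *Fabp1* and *Plin2*. Among the 7 members that were searched, these windows are the ones that hold the letters bound by RBPJ or by PPAR receptors. RefSeq promoter sequences on GRCm38.p6 were matched for 7 of the 10 genes. The 250 bases before the start are printed 5′ to 3′ on the strand of the gene. Capitals mark TGGGAA (the core read by RBPJ), AGGTCA (the half-site of nuclear receptors such as PPAR), AGGNCANAGGNCA (a direct repeat of that half-site with 1 base between, as PPAR and RXR bind) and TATAAA (the TATA box), each searched on both strands, where the direct repeat may overlap a half-site.
*Cd36*, chr5:17835897-17836146, minus strand: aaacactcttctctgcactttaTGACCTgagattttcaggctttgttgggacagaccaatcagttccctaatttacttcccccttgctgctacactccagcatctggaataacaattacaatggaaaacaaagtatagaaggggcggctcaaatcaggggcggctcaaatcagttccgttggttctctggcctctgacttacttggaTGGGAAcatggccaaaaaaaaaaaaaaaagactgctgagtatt
*Fabp1*, chr6:71199629-71199878, plus strand: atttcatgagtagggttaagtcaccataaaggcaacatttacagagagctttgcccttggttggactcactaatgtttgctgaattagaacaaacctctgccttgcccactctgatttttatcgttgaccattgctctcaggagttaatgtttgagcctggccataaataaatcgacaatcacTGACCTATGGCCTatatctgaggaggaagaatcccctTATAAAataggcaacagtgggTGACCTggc
*Plin2*, chr4:86670060-86670309, minus strand: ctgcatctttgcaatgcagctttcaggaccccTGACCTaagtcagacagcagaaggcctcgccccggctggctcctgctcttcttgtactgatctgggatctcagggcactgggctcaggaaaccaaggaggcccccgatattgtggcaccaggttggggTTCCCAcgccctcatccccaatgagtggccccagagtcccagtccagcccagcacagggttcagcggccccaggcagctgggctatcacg
TGGGAA begins 43 bases before the start of *Cd36*, and the *Plin2* window holds it on the opposite strand, 90 bases before the start. Among 32851 RefSeq promoter windows of this length 21.6% hold these letters, and by gene 6510 of 27025 do, so that 2 of 7 members is a description only. AGGTCA is in 3 of the 7 genes, *Cd36*, *Fabp1* and *Plin2*, in 4260 of the 27025 genes with a window and in 14% of all windows. The direct repeat is in *Fabp1* alone among the 7, from 67 to 55 bases before the start. It is in 108 of the 27025 genes and in 0.338% of all windows. This stretch of *Fabp1* is known as its PPAR response element, and TATAAA begins 30 bases before the start of the same gene. It is found somewhere in 12.4% of all windows. A match of letters is not evidence of binding in these livers.

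*Cd36*, the fatty acid translocase and scavenger receptor of the plasma membrane, had normalized log2 intensities of 0.02, -0.12, 0.11 and 0.11 in *Rbpj*+/+ liver (animals +/+_1155, +/+_1156, +/+_1024 and +/+_991, the order used throughout) and of 3.30, 3.28 and 3.70 in *Rbpj*-/- liver (animals -/-_N3, -/-_N5 and -/-_2866). The animals of a genotype lay close together and the genotypes far apart, with means of 0.03 ± 0.11 (SD, n = 4) and 3.43 ± 0.24 (SD, n = 3). The log2 fold change was 3.40 (SE 0.19, adjusted p = 5.97e-05 by limma), which is 10.5-fold, with a 95% confidence interval of 2.97 to 3.83 on the log2 scale. All 35 ways to divide the 7 animals into 4 and 3 were also compared, and this exact permutation test (two-sided) gave p = 0.0286, which no result of this design can undercut. *Cd36* passed under each of the 20 alternatives tried, with log2 fold changes from 2.89 to 3.48.

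*Lpl* encodes lipoprotein lipase, which hydrolyses the triglyceride of chylomicrons and VLDL. Its brighter probe read 4.07, 3.17, 4.19 and 3.91 in *Rbpj*+/+ liver and 5.61, 6.28 and 6.09 in *Rbpj*-/- liver. Every *Rbpj*-/- animal lay above every *Rbpj*+/+ animal, and +/+_1156 was the lowest. This was a rise of 2.16 on the log2 scale (SE 0.29, adjusted p = 0.00208), or 4.46-fold. The second probe of *Lpl*, upstream of the first in the same gene, read 2.01, 1.29, 2.51 and 2.16 against 3.59, 4.30 and 4.26. Both probes therefore gave nearly the same difference, which was 2.06 on the log2 scale (adjusted p = 0.00350) for the second. *Lpl* passed under all 20 alternatives, with log2 fold changes from 1.94 to 2.43.

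*Vldlr* encodes the VLDL receptor, which binds triglyceride-rich particles at the cell surface. It read -0.64, -0.21, -0.36 and -0.29 in *Rbpj*+/+ liver and 0.16, 0.77 and 1.81 in *Rbpj*-/- liver. The *Rbpj*-/- animals were all higher but spread widely, with an SD of 0.83 (n = 3) against 0.19 (n = 4). The log2 fold change of 1.28 (SE 0.35, adjusted p = 0.0318) was 0.84 (adjusted p = 0.0653) without -/-_2866. The second probe was seen well above background on 0 of 4 *Rbpj*+/+ arrays but on 3 of 3 *Rbpj*-/- arrays. It entered the test only through the *Rbpj*-/- arrays and was higher there (adjusted p = 0.0290). The lower bound for the fold of its means, as measured and scaled here, was 1.99. Its fitted log2 fold change had a 95% confidence interval of 0.70 to 2.84. The rise of *Vldlr* no longer passed when dim probes were not filtered (adjusted p = 0.189) and with the *Xist* signal as a covariate (adjusted p = 0.180).

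**Figure D2:**
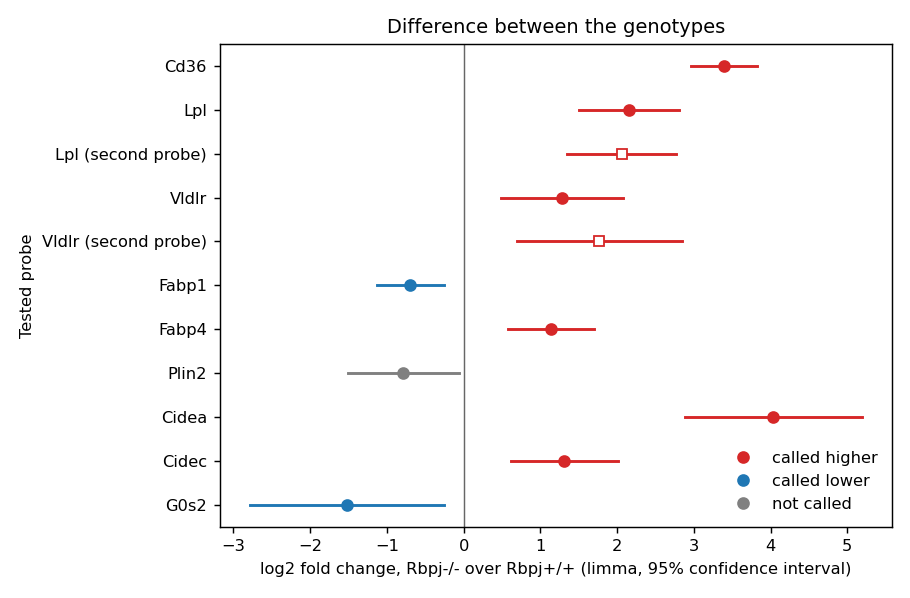
Log2 fold change of *Rbpj*-/- over *Rbpj*+/+ liver (horizontal axis) for each tested probe, with its 95% confidence interval from limma as a line. Filled circles are the brightest probe of a gene and open squares the second probe of *Lpl* and *Vldlr*, which lie on the same side of 0 as the first. The interval of *Cidea* reaches from 2.88 to 5.19 and that of *G0s2* from -2.78 to -0.26.

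The 2 fatty acid binding proteins of the set moved in opposite directions. *Fabp1*, the liver form and one of the most abundant cytosolic proteins of hepatocytes, read 8.04, 8.01, 8.42 and 8.15 in *Rbpj*+/+ liver and 7.37, 7.35 and 7.66 in *Rbpj*-/- liver. The genotypes did not overlap on this scale, and the log2 fold change was -0.69 (SE 0.19, adjusted p = 0.0324). The fall rests on the scaling between arrays. As deposited, before any scaling, the *Fabp1* intensities were 27079, 22016, 19625 and 21232 against 23531, 21239 and 23831, and the genotypes overlapped. The 75th percentile that was subtracted lay at intensities of 57.5 to 103 on the *Rbpj*+/+ arrays and of 118 to 143 on the *Rbpj*-/- arrays. With quantile normalization the log2 fold change was -0.34 (adjusted p = 0.164), and *Fabp1* passed in 14 of the 20 alternatives. It also failed to pass without -/-_N3 (adjusted p = 0.10) and without -/-_N5 (adjusted p = 0.118).

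*Fabp4*, the form of adipocytes that macrophages and capillary endothelium also make, read 2.19, 2.41, 2.97 and 2.64 in *Rbpj*+/+ liver and 3.70, 3.38 and 3.98 in *Rbpj*-/- liver. All *Rbpj*-/- animals were above all *Rbpj*+/+ animals. *Fabp4* rose by 1.14 on the log2 scale (SE 0.25, adjusted p = 0.0131), or 2.20-fold. Here the intensities as deposited were also apart, from 451 to 467 in *Rbpj*+/+ liver and from 1355 to 1863 in *Rbpj*-/- liver. The call was lost in 1 of the 20 alternatives, when dim probes were not filtered (adjusted p = 0.115).

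*Mogat1* encodes a monoacylglycerol acyltransferase, which makes diacylglycerol for triglyceride synthesis. Its probe was well above background on 3 of 4 *Rbpj*+/+ and 1 of 3 *Rbpj*-/- arrays and was therefore not tested with limma. The measured values were -2.78, -1.41, -2.78 and -2.65 against -2.98, -3.78 and -3.99. They did not overlap, but the distance between the nearest animals of the 2 genotypes was small and +/+_1156 alone was much higher than the rest. The difference of the means was -1.18 on the log2 scale (p = 0.0286 by the exact permutation test, again the lowest possible), at levels near the detection limit.

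Of the proteins on the lipid droplet surface, *Plin2* encodes perilipin 2, the main coat protein of hepatocyte droplets. It read 6.70, 5.86, 6.43 and 7.07 in *Rbpj*+/+ liver and 5.53, 5.42 and 6.23 in *Rbpj*-/- liver. The lowest *Rbpj*+/+ animal (+/+_1156) lay below the highest *Rbpj*-/- animal (-/-_2866), so that the genotypes overlapped. The log2 fold change of -0.79 (SE 0.32, adjusted p = 0.106, 95% confidence interval -1.51 to -0.06) did not pass the threshold. The exact permutation test gave p = 0.114 (two-sided). *Plin2* passed in 7 of the 20 alternatives, always as lower in *Rbpj*-/- liver, among them those without +/+_1156 (-1.0, adjusted p = 0.0384) and without -/-_2866 (-1.04, adjusted p = 0.0757).

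*Cidea* encodes a CIDE protein, which acts at the contacts of droplets and lets small droplets pass their lipid into larger ones, and is typical of brown fat. Its probe was well above background in 0 of 4 *Rbpj*+/+ livers and in 3 of 3 *Rbpj*-/- livers. The measured values were -4.32, -5.03, -2.90 and -3.73 against -0.17, 0.87 and -0.58. *Cidea* was higher in *Rbpj*-/- liver (adjusted p = 0.00174 by limma). Only a lower bound for the fold of the means as measured and scaled here can be given, which was 10.4. This bound sets undetected signal no lower than the lowest signal well above background on the array. It is no minimum under other background corrections and leaves out the spread between animals. The fitted log2 fold change, which is no bound, was 4.04 (SE 0.51, 95% confidence interval 2.88 to 5.19). It was 1.02 after normexp background correction with an offset of 50, which raises dim values. *Cidea* passed in each of the 19 alternatives in which it was tested. Its probe entered the test as reported only through the *Rbpj*-/- arrays, which limits what these passes can show. Without the filter on dim probes, which needs no such entry, the adjusted p was 0.0370 by limma.

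*Cidec*, the CIDE protein that drives the large single droplet of white fat cells and is also known as FSP27, read -1.21, -1.02, -0.77 and -1.05 in *Rbpj*+/+ liver and -0.05, 1.09 and -0.14 in *Rbpj*-/- liver. The *Rbpj*+/+ animals lay within a narrow range below all *Rbpj*-/- animals, of which -/-_N5 was the highest, as it was for *Cidea*. The log2 fold change was 1.31 (SE 0.31, adjusted p = 0.0178), or 2.48-fold, and 0.92 (adjusted p = 0.0424) without -/-_N5. It did not pass when dim probes were not filtered (adjusted p = 0.136) or with the *Xist* signal as a covariate (adjusted p = 0.119). The second probe of *Cidec* was well above background on 0 of 4 and 1 of 3 arrays and was not tested. Its values overlapped, from -5.93 to -4.23 in *Rbpj*+/+ liver and from -4.31 to -2.62 in *Rbpj*-/- liver.

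*G0s2* encodes the inhibitor of ATGL, the lipase that takes the first fatty acid from stored triglyceride. Its levels were 4.44, 2.52, 3.05 and 4.03 in *Rbpj*+/+ liver and 2.62, 0.83 and 2.52 in *Rbpj*-/- liver. The spread within each genotype was large and the genotypes overlapped, with -/-_N5 far below the other *Rbpj*-/- animals. On average *G0s2* had a log2 fold change of -1.52 (SE 0.56, adjusted p = 0.0796), and the exact permutation test gave p = 0.0857 (two-sided). The call was the least stable of the 8, since it was lost in 12 of the 20 alternatives, and without -/-_N5 the log2 fold change was -0.94 (adjusted p = 0.262). Leaving out +/+_1155, +/+_1024, +/+_991 or -/-_2866 also ended the call.

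**Figure D3:**
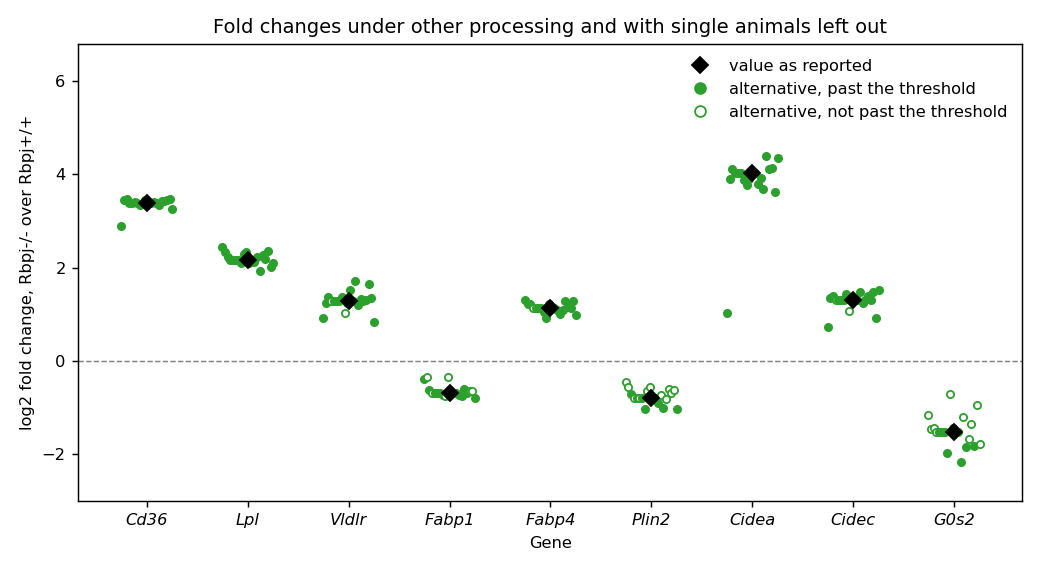
Log2 fold change of *Rbpj*-/- over *Rbpj*+/+ liver (vertical axis) of the 9 tested genes as reported (diamond) and under up to 20 alternatives (circles, filled where the adjusted p passed the threshold). None of the 9 changed its direction, *Cd36* and *Lpl* passed throughout, and *G0s2* passed in 8 of 20.

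The other genes of lipid uptake and storage were read from 5 lists with 77 genes, of which 72 were tested. In *Rbpj*-/- liver 11 of them were higher and 20 lower, so that 43.1% passed, where 34.2% of all genes tested did. The median log2 fold change of the 72 genes was -0.12, near that of all genes. Of 22 tested genes for fatty acid and lipoprotein uptake besides the members, 3 were higher and 8 lower (median log2 fold change -0.26). *Acsl1*, the main acyl-CoA synthetase of hepatocytes, read 8.13, 7.87, 8.52 and 8.55 against 5.53, 5.88 and 7.09, a log2 fold change of -2.10 (adjusted p = 0.00602). The transporter and very-long-chain acyl-CoA synthetase *Slc27a2* fell by 1.38 and the intestinal form of the binding proteins, *Fabp2*, fell by 2.20 on the log2 scale. *Fabp5*, the epidermal form, fell by 1.13, and *Angptl8*, a secreted partner in the inhibition of lipoprotein lipase, fell by 1.12. Among the genes that rose, *Fabp7*, the brain form, read 0.51, 0.05, 0.32 and 0.24 against 2.37, 2.05 and 2.43 (log2 fold change 2.0, adjusted p = 0.000592), and *Acsl4*, which prefers arachidonic acid, rose by 1.05. Of the 5 binding proteins that were tested, the members included, the probes named *Fabp1*, *Fabp2* and *Fabp5* were thus lower and those named *Fabp4* and *Fabp7* higher. The array places the *Fabp5* probe at chr9:57332244-57332303 (mm9), and whether it reads *Fabp5* alone was not tested. *Acsl1*, *Slc27a2*, *Fabp2* and *Fabp7* passed in all 20 alternatives, *Fabp5* in 17, *Angptl8* in 16 and *Acsl4* in 15.

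Of 15 genes for triglyceride synthesis 5 were higher and 1 was lower (median 0.07). *Mogat2*, the monoacylglycerol acyltransferase of the intestine, read -1.05, -1.20, -2.67 and -1.29 against 1.36, -0.52 and 1.86, a log2 fold change of 2.45 (adjusted p = 0.0193), and was well above background on 3 of 4 *Rbpj*+/+ arrays. *Gpat3*, a glycerol-3-phosphate acyltransferase of adipose tissue, rose by 1.43 (adjusted p = 0.0297). The last step of synthesis was split, as *Dgat1* was higher by 0.60 (adjusted p = 0.0648) and *Dgat2* lower, with a log2 fold change of -0.57 (adjusted p = 0.0631). These 2 genes lie under the size set for naming and were added after their values were seen, and they passed in 13 (*Dgat1*) and 9 (*Dgat2*) of the 20 alternatives.

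Of 14 other genes for droplet coat, fusion and assembly 2 were higher and 1 was lower (median 0.09), and their share of 21.4% lay below the 34.2% of all genes tested. *Hsd17b13*, a droplet protein of hepatocytes, read 5.32, 4.25, 4.81 and 4.74 against 5.78, 6.18 and 6.02 (log2 fold change 1.22, adjusted p = 0.0132). Its second, dimmer probe gave -0.04 (adjusted p = 0.894), so the probes of this gene disagree. *Fitm1*, which helps to form droplets, had a log2 fold change of -1.55 at an adjusted p of 0.0936, and passed in 8 of the 20 alternatives. In the lipolysis list, which also holds *Hsd17b13*, 1 of 10 genes was higher and 4 were lower (median -0.285). *Mgll*, the monoacylglycerol lipase, read 5.95, 5.62, 5.76 and 5.50 against 3.38, 3.43 and 4.39, a log2 fold change of -1.97 (adjusted p = 0.00252). The carboxylesterase *Ces3a*, a triacylglycerol hydrolase of the hepatocyte, had the largest fall of these lists, from 8.92, 8.62, 9.03 and 8.92 to 1.78, -0.23 and 4.42, a log2 fold change of -6.88 (adjusted p = 0.00171). Both passed in all 20 alternatives. *Pnpla2*, which encodes ATGL, the target of the G0s2 protein, was also looked at after its value was seen and had a log2 fold change of 0.02 (adjusted p = 0.955, 95% confidence interval from -0.47 to 0.51).

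Among 13 transcription factors and coactivators of lipid storage 1 was higher and 6 were lower (median -0.53). *Pparg*, which encodes the PPAR form of adipocytes, read 2.21, 2.17, 0.96 and 1.53 in *Rbpj*+/+ liver and 2.83, 3.27 and 3.18 in *Rbpj*-/- liver. *Ppara*, the form of hepatocytes, read 6.33, 6.22, 5.52 and 6.13 against 4.22, 4.67 and 5.08. Neither gene overlapped between the genotypes, and the log2 fold changes were opposite, 1.38 (adjusted p = 0.0177) for *Pparg* and -1.40 (adjusted p = 0.00962) for *Ppara*, whose other 2 tested probes were lower too. *Mlxipl*, which encodes the carbohydrate response factor ChREBP, fell by 1.29 (adjusted p = 0.0106), and *Cebpa* fell by 1.01 (adjusted p = 0.0877), with the *Rbpj*-/- animal -/-_2866 at 4.95 among the *Rbpj*+/+ values. *Ppara* passed in all 20 alternatives, *Pparg* and *Mlxipl* in 19 and *Cebpa* in 7. Whether the members followed these receptors was not tested.

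**Figure D4:**
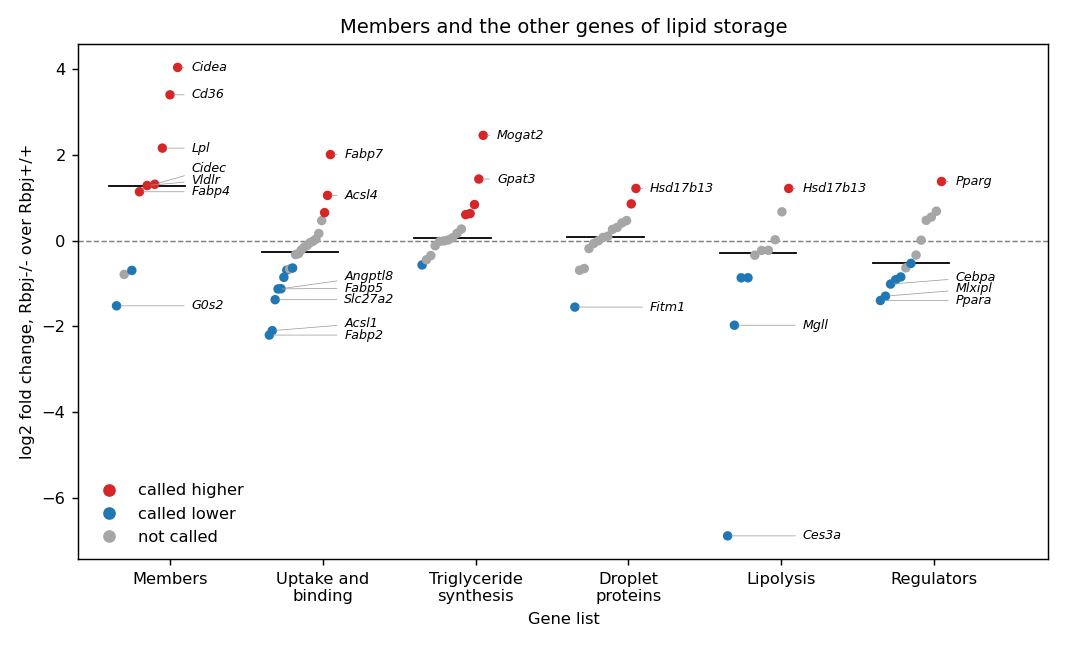
Log2 fold change of *Rbpj*-/- over *Rbpj*+/+ liver (vertical axis) of the 9 tested members and of the tested genes of the 5 other lists, with 1 point per gene and the median of the list as a line. Genes past the threshold that changed by 1 or more on the log2 scale are named, and *Hsd17b13* stands in 2 lists.

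Markers of other cell types moved with the genotype. Of all genes tested 14.6% were higher and 19.5% lower, against which the counts below are to be read. Whole liver was measured, so fewer cells of a type and less RNA per cell cannot be told apart. Of 10 macrophage markers 8 were higher and 1 (*Itgam*, whose second tested probe went the other way without passing) was lower, and their summed level, in multiples of the 75th percentile, was 108 to 138 in *Rbpj*+/+ liver and 371 to 477 in *Rbpj*-/- liver. *Cd5l* rose by 1.84 on the log2 scale (adjusted p = 0.000955). *Gpnmb*, a marker of lipid-laden macrophages, was also higher (adjusted p = 0.00537), with no *Rbpj*+/+ array well above background. It is among the 8, although it entered the test only through the *Rbpj*-/- arrays. The lower bound for the fold of the *Gpnmb* means, as measured and scaled here, was 12.2. The fitted log2 fold change had a 95% confidence interval of 2.77 to 6.23. Of 9 endothelial markers 5 were higher and 1 (*Kdr*, whose second probe did not differ) was lower, with sums of 55.2 to 80.6 and 95.5 to 146. Among the 5, *Tek* and *Emcn* entered the test only through the *Rbpj*-/- arrays. The log2 fold change was 1.96 for *Vwf*, the largest of the list, and 1.21 for *Clec4g*. Stellate cell markers were higher for 5 of 8 genes, with sums of 93.9 to 160 and 173 to 190, where *Acta2* rose by 1.70 while *Dcn* had a log2 fold change of 0.49 (adjusted p = 0.202). Of 6 tested bile duct markers 2 were higher, with sums over the list of 3.95 to 4.41 and 4.79 to 12, *Spp1* showing the largest change (1.66). The part of these cells in the rises of *Cd36*, *Lpl*, *Fabp4* and *Vldlr* was not tested.

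The hepatocyte markers were present on every array, with sums of 4556 to 6104 and 2958 to 3432. In *Rbpj*-/- liver 7 of 9 were lower, where 19.5% of all genes tested were. *Cps1*, with a log2 fold change of 0.94 (adjusted p = 0.162), and *Hnf4a*, with -0.32 (adjusted p = 0.216), did not pass. *Serpina1c* had a log2 fold change of -0.73 and *Apob* of -0.97, although a dimmer probe of *Apob* gave 0.34 (adjusted p = 0.669). These falls have the size of that of *Fabp1* (-0.69) and stand on the same scaling. The part of the hepatocyte share in the falls of *Fabp1* and *G0s2* was not tested.

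The defining markers of adipocytes were at or near the background. Of 8 adipocyte markers 2 were tested, and *Lep* and *Plin1* were well above background on no array. *Adipoq* was so on 1 array of each genotype, +/+_1156 and -/-_N3 being the arrays with its highest values. The summed level of the list was 2.14 to 5.30 in *Rbpj*+/+ and 2.04 to 5.99 in *Rbpj*-/- liver. The 2 tested genes went opposite ways, with the insulin-responsive glucose transporter *Slc2a4* higher by 2.84 (adjusted p = 0.0167) and *Adrb3* lower by a log2 fold change of -1.95 (adjusted p = 0.0206). None of 6 muscle markers was tested, and *Ckm*, *Myl1* and *Mb* were well above background on no array.

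**Figure D5:**
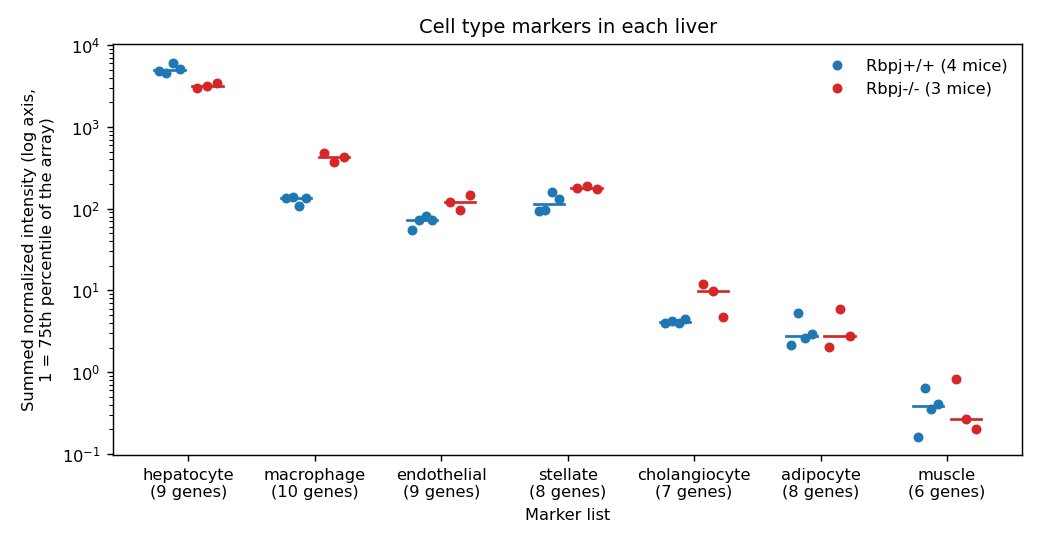
Summed normalized intensity of 7 marker lists (log vertical axis, 1 is the 75th percentile of the array) in each of the 7 livers, with 1 point per animal and the median of the genotype as a line. Macrophage markers sum to 108 to 138 in *Rbpj*+/+ and 371 to 477 in *Rbpj*-/- liver, while the adipocyte sums overlap.

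For the deleted gene, *Rbpj*, the levels were 0.97, 0.29, 0.33 and 0.81 in *Rbpj*+/+ liver and -0.35, -0.78 and -0.48 in *Rbpj*-/- liver (log2 fold change -1.13, adjusted p = 0.0115). This does not go against the labels, although it is not given whether the probe lies in the deleted part. The transcripts of *Ddx3y* and *Eif2s3y*, on the Y chromosome, were well above background on all 7 arrays, and *Xist* on 1, that of +/+_1155. Probes well above background made up 41.1% to 65.0% of all, and the highest shares were on +/+_1156 and -/-_N3, where dim probes were brighter. Leaving out both arrays, 9 of the 9 tested members passed. All arrays were on 1 slide, where *Rbpj*+/+ arrays lay in the upper row and *Rbpj*-/- arrays in the lower, so that row and genotype cannot be told apart.

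For each tested member the gene most like it over the 7 arrays was sought, as a description with no test. The other members, genes with a removed value and genes known only by their array name were left out, also from the counts below. The highest Pearson r was 0.995 for *Cd36* (with *Golm1*), 0.995 for *Lpl* (*Crip2*), 0.970 for *Vldlr* (*Gtf2h2*), 0.9997 for *Fabp1* (*Kdm5b*) and 0.997 for *Fabp4* (*Evc*). It was 0.989 for *Plin2* (*Catsperd*), 0.991 for *Cidea* (*Gm11937*), 0.986 for *Cidec* (*Stfa1*) and 0.989 for *G0s2* (*Tmem175*). Between 52 (*Vldlr*) and 1162 (*Fabp1*) genes reached an r of 0.9, and all points share the step between the genotypes. Among the members, *Cidea* followed *Lpl* most closely (r = 0.971), and *G0s2* followed *Plin2* (r = 0.859) and ran against *Cidec* (r = -0.885).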

How the data were processed

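Whole liver RNA of 4 *Rbpj*+/+ and 3 *Rbpj*-/- mice was measured. The authors deposited the scanner output, whose intensity values were background-subtracted and detrended with Agilent Feature Extraction 10.7.3.1 and not normalized between arrays, and a matrix of log2 values, which the authors made from them. The deposited matrix follows quantile-normalized, median-centred values (r of 0.9998 or more on each array), while the methods name a percentile shift, and its centring leaves levels unknown.

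Control probes were not used, nor were spots with a non-uniformity or population outlier mark (146 probe values lost). Saturation was marked nowhere. Spots of a probe were averaged on log2, and the 75th percentile of the array was subtracted. A probe entered the test if every array of a genotype had it as detected, which means positive and significant as well as above background by the scanner's marks (24550 probes, of which 8242 passed). The test of the genotypes was that of limma 3.58.1 (R 4.3.3), which stands for the shrinkage t of the methods, and a gene was read by its brightest tested probe (18756 genes). The design has 7 arrays, which limits the precision, and p-values measure the spread between these animals. A lower bound of the fold is given where no array of a genotype was well above background. It sets the mean of the bright genotype against the mean, over the arrays of the dim one, of the higher of the lowest detected signal and the signal of the probe. The bound refers to these means alone, is no minimum under other background corrections and leaves out the spread between animals.

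The members and lists were chosen with earlier results of these data known. Named are all members, genes of each list past the threshold that changed by 1 or more on the log2 scale, the brightest and most changed marker of each cell type, *Rbpj*, 3 sex-linked genes and the gene most like each member. Probe names were updated through RefSeq by accession (28331 probes), symbol (2209) or synonym (174), and 24967 kept the name of the array. Promoters are from RefSeq (GRCm38.p6), and no coordinates of the array (mm9) were mixed with them. The steps were tested on simulated data. Alternatives were normexp (offset 50), quantile normalization, the percentile over detected probes, other filters, flagged spots kept, limma-trend, array weights, *Xist* as covariate, the matrix, the mean of probes, a threshold of 0.05, both arrays with brighter dim probes left out, and each animal left out. Figures were made with Python 3.11.15 and matplotlib 3.10.9.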

Additional observations from a re-analysis of the deposited data

Results flagged for a closer look

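The *Mogat1* signal of *Rbpj*+/+ animal +/+_1156 (-1.41 on the normalized log2 scale) stood apart from the other 3 animals of its group (-2.78 to -2.65). Its gap to the nearest of them took up 0.904 of the range of the group, above Dixon's 95% critical value for 4 samples. The *Rbpj*+/+ values of all 13 probes of the members were screened, and only this value was marked. Chance marks about 1 in 20 groups in this way. The array of +/+_1156 is 1 of the 2 on which dim probes were brighter, and the part of this in the *Mogat1* value was not tested.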

How the results depend on the processing

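Of the 9 tested members 8 passed as reported, 3 when dim probes were not filtered and 4 with the *Xist* signal as a covariate, and 6 to 9 with 1 animal left out. The count over all genes was 6407 as reported, 1639 without the filter and 3942 with *Xist*, and 3716 (without -/-_N5) to 7101 (without +/+_1156) with 1 animal left out, 4268 being reached without +/+_1024. For the 72 related genes the count was 31 as reported, 7 without the filter, 14 with *Xist*, 19 at a threshold of 0.05, and 15 (without -/-_N5) to 32 (without +/+_1156) with 1 animal left out, 19 without +/+_991 and 20 without -/-_N3. Without the filter many more dim probes enter the fit and the adjustment. The *Xist* covariate is the brightest *Xist* probe, which was well above background on 1 array only. Its level went with the genotype, as every *Rbpj*-/- array lay below every *Rbpj*+/+ array (difference -1.31 on the log2 scale). Calls lost with it can therefore not be read as an effect of sex. The cause of the other shifts was not tested. Both falling members, *Fabp1* and *G0s2*, no longer passed with quantile normalization or in the authors' matrix, whereas the 6 rising members passed in both. None of the 9 tested members changed direction in the alternatives in which it was fitted, which were all 20 except for *Cidea*, which was not tested when detection on all 7 arrays was required. *Mogat1* was not followed through the alternatives. A slide block was not run, because all arrays were on 1 slide. No paired analysis was possible because the genotypes share no replicate numbers. *Mogat1*, *Cidea* and the second probes of *Vldlr* and *Cidec* lie near the background, which limits what their values can show.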
